A study of Mus musculus with 19 samples.

Results

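Guca2a, Guca2b and Gucy2c encode guanylin, uroguanylin and guanylate cyclase C, the peptides and the receptor of one signalling route of the gut epithelium. They were taken by symbol, as 3 of the 24062 genes in the bulk count table and 3 of the 31053 in the single-cell matrix. The bulk table held 15 libraries and the matrix held 1 droplet library. The study examined the transcription factor Ascl2 of crypt base stem cells in colon regeneration, and its hindgut libraries describe how the colonic epithelium develops. Its ChIP-seq data were left aside here.

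Guanylin and uroguanylin are secreted into the gut lumen and bind guanylate cyclase C on the apical face of epithelial cells. The receptor makes cyclic GMP, which acts through the kinase Prkg2, opens the chloride channel Cftr and inhibits the sodium-proton exchanger Slc9a3, so that salt and water stay in the lumen. Bacterial heat-stable enterotoxins use the same receptor to cause secretory diarrhoea. Guanylin is the main peptide of the colon and uroguanylin that of the small intestine, and both are products of differentiated cells, whereas the receptor is found along the crypt.

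The adult mice were of mixed C57BL/6 and 129/Sv background, and their ages are not given in the sources used here. Ascl2 KO cells (2 libraries) came from Ascl2Fl/Fl; Lgr5EGFP-Cre+ mice given tamoxifen, 2 mg on the first days and 1 mg at the last. Cre is thus driven by the Lgr5 locus, in stem cells. Regenerating cells (2 libraries) came from Ascl2(mCh); Lgr5Dtr-Egfp+ mice given 4 injections of 50 ug/kg diphtheria toxin, which kills Lgr5-expressing cells. WT stem cells (3 libraries) carried the same 2 reporter alleles, without toxin. Cells were sorted on mCherry or GFP, so that genotype, reporter allele, drug and sort differ together between the KO and the other groups and cannot be told apart. Hindgut epithelium was sorted on Epcam from CD1 embryos at E11, E12, E14 and E16 (2 libraries each), and was prepared with another kit than the adult cells. The single cells were mCherry-positive, GFP-negative crypt cells on day 8 of regeneration (1 library). The hindgut titles name biological replicates and the adult titles only replicates, and neither says whether they came from separate animals. The p-values thus measure the spread between these libraries.

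Library totals ranged from 16553279 to 30074569 counts in adult cells and from 13826958 to 30583908 in hindgut. Ascl2 itself was at 53.8 and 59.2 CPM (counts scaled by effective library size) in Ascl2 KO, 85.7 and 57.0 in regenerating and 110, 151 and 104 in WT libraries. It was thus lower in KO than in WT cells without being absent, and the counts do not show whether the reads came from the deleted part. The 2 KO libraries stood apart in composition: their scaling factors were 0.616 and 0.660, against 1.11 and 1.11 in regenerating and 1.21 to 1.32 in WT libraries, and 51.2% and 51.4% of their reads were not unique, against 36.4% to 40.2% in the others. Xist, a transcript of female cells, was high in 1 of 2 KO, 0 of 2 regenerating and 2 of 3 WT libraries, and no fit had a term for sex.

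Guca2a and Guca2b lie next to each other on chromosome 4 (GRCm38.p6), at 119637732 to 119639465 on the plus strand and 119656601 to 119658945 on the minus strand. They face each other tail to tail across 17135 bases with no annotated gene between them. Gucy2c lies apart on chromosome 6, 136697284 to 136781742. Guca2b overlaps the annotated non-coding gene Gm35761 at its start. The strand setting of the bulk counting is not given in the sources used here, so bulk reads of the 2 transcripts there cannot be told apart. The 250 bases before each peptide gene's start are shown because the 2 neighbours moved together in most comparisons below. They are from RefSeq (GRCm38.p6), each on its gene's own strand, Guca2a at chr4:119637482-119637731 and Guca2b at chr4:119658946-119659195. Capitals mark matches, on either strand, to the 6 motifs described after the sequences.
Guca2a: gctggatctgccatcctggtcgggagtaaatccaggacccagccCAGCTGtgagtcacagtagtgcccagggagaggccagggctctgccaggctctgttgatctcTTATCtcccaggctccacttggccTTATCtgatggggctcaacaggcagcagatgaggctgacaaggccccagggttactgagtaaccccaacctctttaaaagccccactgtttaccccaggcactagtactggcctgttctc
Guca2b: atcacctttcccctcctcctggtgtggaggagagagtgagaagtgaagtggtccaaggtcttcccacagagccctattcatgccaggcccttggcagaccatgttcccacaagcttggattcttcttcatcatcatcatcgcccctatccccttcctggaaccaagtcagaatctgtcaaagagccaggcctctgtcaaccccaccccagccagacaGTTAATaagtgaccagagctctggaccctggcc

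The Guca2a window held 1 CAGCTG, an E-box of the kind bound by basic helix-loop-helix factors, 206 bases before the start, and 2 GATAA cores on the minus strand, 144 and 120 bases before it. The Guca2b window held 1 GTTAAT, a homeodomain half-site, 33 bases before the start. Neither held the other E-box searched, CAGGTG, the CDX core TTTAT or the TATA box TATAAA, and the last 2 overlap in part. Such letters are common. Of 32851 promoter windows of the same length, 13% held the first E-box, 17.22% the second, 22.58% the GATA core, 6.432% the homeodomain half-site, 37.26% the CDX core and 12.37% the TATA box. The 2 windows shared none of the 6 motifs, on either strand.

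In Ascl2 KO cells both peptide genes were higher and the receptor gene was lower than in WT stem cells. Levels below are CPM on the TMM scale, which corrects library totals for composition, and they are not divided by transcript length, so they are compared between libraries and not between genes. Guca2a, guanylin, had 11339 and 10867 CPM in the Ascl2 KO libraries, against 768, 508 and 2486 CPM in the WT libraries. Both KO libraries were above every WT library, as were those of 29.5% of the 13911 genes tested, and the WT libraries differed among themselves by more than the KO libraries did. Guca2a took 0.698% and 0.716% of all counts in KO cells, against 0.0668% to 0.302% in WT cells. It was 8.85-fold higher (log2 fold change 3.15 ± 0.60 SE; edgeR quasi-likelihood adjusted p = 0.00376).

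Guca2b, uroguanylin, had 517 and 478 CPM in the KO libraries and 44.1, 34.9 and 74.3 CPM in the WT libraries. The groups did not overlap, and the gene was 9.74-fold higher in KO cells (log2 3.28 ± 0.31; edgeR adjusted p = 9.75e-05). Gucy2c, the receptor, had 75.3 and 62.2 CPM in the KO libraries, against 168, 180 and 209 CPM in the WT libraries. Both KO libraries were below every WT library, as for 28.5% of genes, at 0.371 of the WT level (log2 -1.43 ± 0.22; edgeR adjusted p = 0.00124). All 3 genes were thus called at an adjusted p below 0.05, where 36.2% of the genes tested were called in either direction, 18.8% as higher and 17.4% as lower.

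The size of these differences rested on the scaling, and that of Guca2a also on 1 WT library. With library size alone in place of TMM, which moved the median log2 fold change of all genes to -1.0, against -0.02 with TMM, Guca2a was 4.57-fold and Guca2b 4.97-fold higher and Gucy2c was at 0.187 of the WT level, all 3 still called. Without WT replicate 3, the WT library with the most guanylin, Guca2a was 17.4-fold higher.

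**Figure D1:**
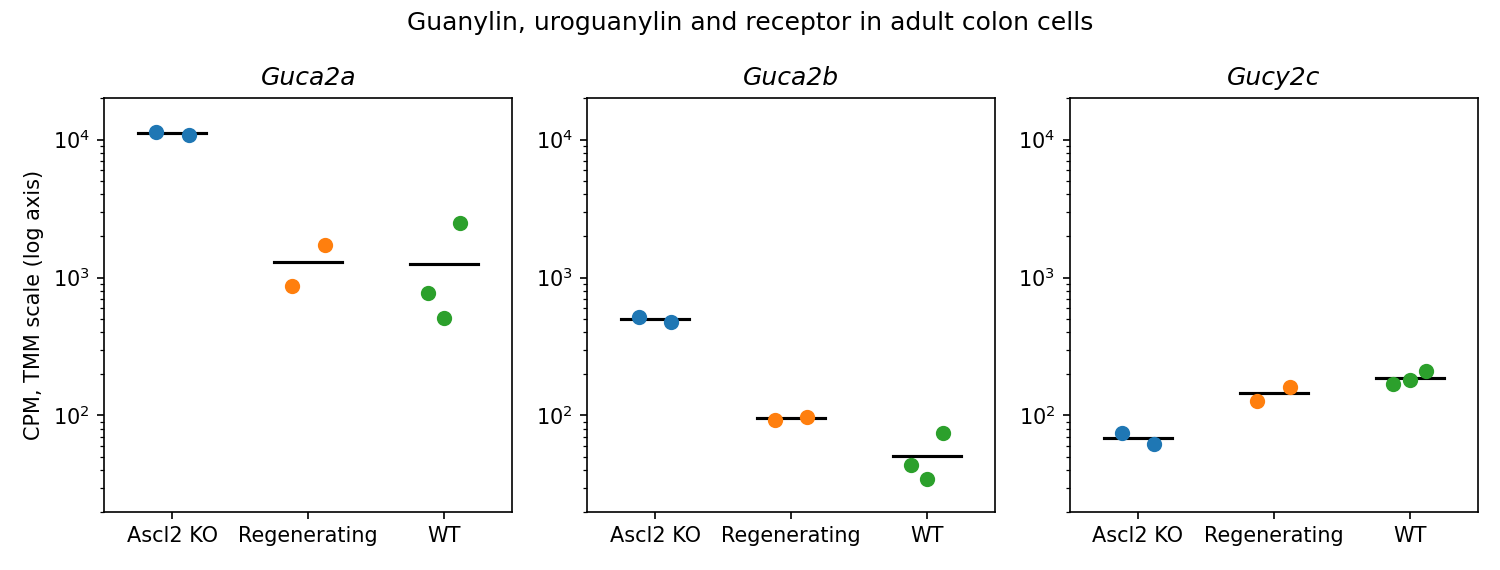
Levels of Guca2a, Guca2b and Gucy2c (CPM, TMM scale, log axis) in Ascl2 KO, regenerating and WT libraries; points are libraries and lines are group means. The KO libraries stand above all others for both peptides, with 11339 and 10867 CPM of Guca2a, and below all others for the receptor, with 75.3 and 62.2 CPM.

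Markers of other cell types differed between the same libraries. The summed level of 10 goblet markers, from mucus-secreting cells, was 27951 to 29152 CPM in KO, 8607 to 16755 in regenerating and 2220 to 6226 in WT libraries. The sum of 8 deep crypt secretory markers, a secretory type of the colonic crypt base, was 12560 to 25196 CPM in KO, 26193 to 39195 in regenerating and 1102 to 2836 in WT libraries. Enteroendocrine markers, 11 in all, summed to 1942 to 2544 CPM in KO, 59.8 to 72.8 in regenerating and 91.9 to 226 in WT libraries. Both secretory sums were thus above WT in KO cells, and regenerating cells had the highest deep crypt secretory sum. The 12 absorptive colonocyte markers overlapped between KO and WT cells in their sum, at 9560 to 15606 CPM in KO, 1433 to 5386 in regenerating and 2902 to 15110 in WT libraries, where WT replicate 3 had the highest sum as it had the most guanylin. Tuft markers summed to 9.24 to 14 CPM in KO and 65.5 to 109.8 CPM in WT libraries, mitosis markers to 1675 to 2416 in KO and 909.7 to 1434 in WT, and epithelial markers to 18453 to 19501 in KO and 12167 to 14349 in WT libraries. None of these 3 sums overlapped between KO and WT. No goblet or colonocyte marker was at 0 in any adult library. The sum of 9 stem cell markers was 395 to 435 CPM in KO, 877 to 919 in regenerating and 1200 to 1505 in WT libraries. That list includes Ascl2, the deleted gene, and Lgr5, whose expressing cells the toxin kills, so its order was in part set by the design.

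Immune and stromal markers were also higher in the KO libraries. The 10 immune markers summed to 606 to 1138 CPM in KO, 10.6 to 32.2 in regenerating and 2.28 to 44.8 in WT libraries, where Csf1r was at 0 in all 3 WT libraries. The 8 stromal markers summed to 143 to 222 CPM in KO, 11.7 to 14.7 in regenerating and 3.89 to 6.90 in WT libraries, with Col1a2, Lum and Pdgfra at 0 in all 3 WT libraries. In bulk libraries a change in the share of cells of a type and a change in RNA per cell cannot be told apart. The part of these markers in the changes of the 3 genes was not tested.

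Against regenerating cells the KO libraries showed the same directions, with 31.4% of genes tested called, 15.4% as higher and 16% as lower; both comparisons share the KO libraries. The 2 groups did not overlap for any of the 3 genes, as was so for 32.8% of genes that were higher and 37% that were lower in KO cells. Guca2a had 11339 and 10867 CPM in KO libraries, against 875 and 1709 CPM in regenerating libraries, and was higher in KO cells by 3.10 ± 0.70 (log2; edgeR adjusted p = 0.00964). Guca2b had 517 and 478 CPM in KO libraries, against 92.9 and 98.2 CPM in regenerating libraries, and was higher in KO cells by 2.38 ± 0.35 (edgeR adjusted p = 0.00115). Gucy2c had 75.3 and 62.2 CPM in KO libraries, against 127 and 161 CPM in regenerating libraries, a log2 fold change of -1.07 ± 0.23 (edgeR adjusted p = 0.00816). The Guca2a call was lost without regenerating replicate 1 (edgeR adjusted p = 0.0704), and the Gucy2c call without regenerating replicate 2 (0.0609) or KO replicate 2 (0.0584).

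Between regenerating and WT cells none of the 3 genes passed the test, where 0.331% of genes did, 0.302% as higher and 0.0288% as lower. Guca2a overlapped between the groups, at a mean of 1292 ± 590 CPM (SD, n = 2) in regenerating and 1254 ± 1075 CPM (SD, n = 3) in WT cells (log2 0.04 ± 0.59, edgeR adjusted p = 0.999). Its sign turned with the libraries used, between -0.57 without regenerating replicate 2 and 1.02 without WT replicate 3. Guca2b was above every WT library in both regenerating libraries, as were 17.6% of genes, by 0.90 ± 0.30 (log2; edgeR adjusted p = 0.303). Gucy2c was below every WT library in both, as were 11.3% of genes, by -0.36 ± 0.21 (edgeR adjusted p = 0.666).

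The adult order was therefore KO above the other groups for both peptides, with regenerating and WT cells not separated by the test, and KO lowest for the receptor. The ratio of Guca2a to Guca2b reads was 21.9 and 22.8 in KO libraries, 9.41 and 17.4 in regenerating libraries and 17.4, 14.5 and 33.5 in WT libraries. These ranges overlapped between KO and WT cells, and the ratio varied most among the WT libraries. Across the 7 adult libraries the log2 levels of Guca2a and Guca2b had r = 0.95, Guca2a and Gucy2c r = -0.80 and Guca2b and Gucy2c r = -0.92, descriptions over points that include the 2 KO libraries of unlike composition. Among 9310 genes at 10 CPM or more in some group, the closest to Guca2a were Gna13, Nbeal1 and 4732491K20Rik (r = 0.99 each), those closest to Guca2b were Anxa2, Cd9 and S100a13, and those closest to Gucy2c were Lcp1, Sord and Itfg3.

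The surrounding pathway was read through 46 listed symbols in 4 roles, of which 44 were in the table under their older or newer names and 31 were tested in adult cells. In KO against WT cells 3 rose and 10 fell, with a median log2 fold change of -0.70, beside -0.02 over all genes tested. The 13 called of 31 stand beside 36.2% of all genes (18.8% higher, 17.4% lower), so neither this count nor those by role are read as particular to the list. With library size alone 1 rose and 20 fell, and calls over all genes were 1233 higher and 5328 lower, against 2618 higher and 2421 lower with TMM.

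Among effectors and cyclic GMP handling genes, 1 of 7 tested was called. Pde9a, a phosphodiesterase that breaks down cyclic GMP, fell to 53.0 and 56.1 CPM in KO cells, against 126, 72.0 and 143 CPM in WT cells (log2 -1.06 ± 0.30, edgeR adjusted p = 0.0222), a call lost without KO replicate 1, KO replicate 2, WT replicate 1 or WT replicate 3. The kinase Prkg2 had 1.45 and 3.76 CPM in KO and 9.39, 3.77 and 16.5 CPM in WT cells and did not pass (edgeR adjusted p = 0.105). Prkg2 was thus a low gene in both groups.

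Of 12 transport and scaffold targets 4 fell and none rose. Slc9a2, an apical sodium-proton exchanger, fell by 2.41 ± 0.70 (log2; edgeR adjusted p = 0.0258), a call lost without the same libraries as for Pde9a. Pdzd3 and Slc9a3r1, scaffold proteins that hold exchangers or the receptor at the membrane, fell by 1.75 ± 0.53 (0.0296) and 1.27 ± 0.33 (0.0168). Neither was called without KO replicate 2, nor Pdzd3 without WT replicate 1 or WT replicate 3. Slc12a2, the basolateral cotransporter that loads cells with chloride, had 123 and 146 CPM in KO and 216, 275 and 267 CPM in WT cells, and it fell by 0.91 ± 0.21 (edgeR adjusted p = 0.00913), a call lost without KO replicate 1. The chloride channel Cftr had 127 and 123 CPM in KO and 65.8, 89.3 and 82.3 CPM in WT cells, above the threshold (edgeR adjusted p = 0.0521), and it rose against regenerating cells (34.5 and 48.3 CPM; log2 1.59 ± 0.26, edgeR adjusted p = 0.00209).

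Of the other guanylate cyclases and their peptides, 3 of 15 listed were tested and Nppb was called. Nppb, the B-type natriuretic peptide, had 1.99 and 16.6 CPM in KO cells and no counts in the WT libraries (edgeR adjusted p = 0.00511). With WT set to 3 counts in all, its pooled KO level was 309-fold higher. This fold does not allow for the spread between the KO libraries. Nppb passed the filter through the KO libraries alone, so it could only be called higher. Its own 2 libraries differed widely, and it was not called without KO replicate 2.

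The transcription factors reported at the promoters of these genes moved both ways, 2 up and 5 down of 9 tested. Cdx2, the intestinal homeobox factor described as an activator of Gucy2c, had 20.3 and 6.96 CPM in KO and 54.9 to 68.9 CPM in the 3 WT libraries (log2 -2.17 ± 0.43, edgeR adjusted p = 0.00431). Cdx1, Hnf4a and Gata6, regulators of intestinal epithelial identity, fell by 1.39 ± 0.21, 1.47 ± 0.28 and 1.02 ± 0.24 (edgeR adjusted p = 0.00107, 0.00388 and 0.00927). These falls came in the same comparison as that of Gucy2c, where 17.4% of all genes tested were called lower, and a link to Gucy2c was not tested. The Gata6 call was lost without KO replicate 2. Klf4, a factor of differentiated and goblet cells, had 307 and 263 CPM in KO and 74.3, 41.8 and 133 CPM in WT cells (log2 1.78 ± 0.40, edgeR adjusted p = 0.00809). Tcf7l2, the Wnt effector, rose by 1.23 ± 0.26 (0.0056). Neither Klf4 nor Tcf7l2 was called with library size alone, nor Klf4 without KO replicate 1.

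**Figure D2:**
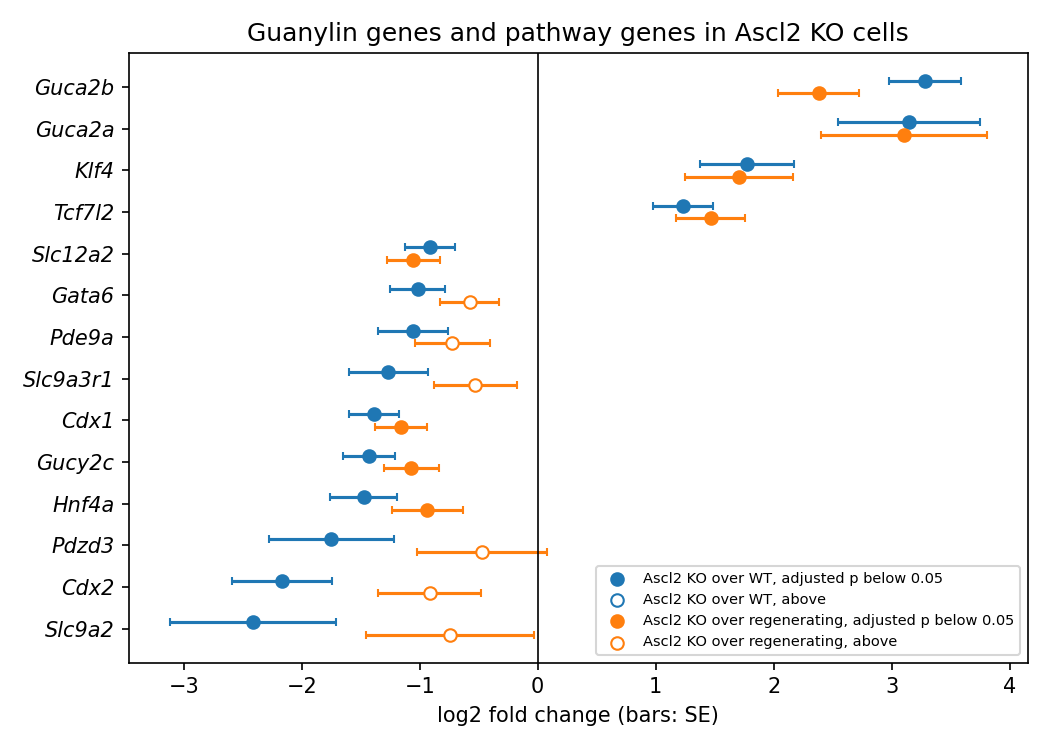
log2 fold changes of Ascl2 KO over WT (blue) and over regenerating cells (orange) for the 3 genes and listed pathway genes called against WT, with SE bars; filled points have an edgeR adjusted p below 0.05, and Nppb is left out since its WT libraries had no counts. Guca2b and Guca2a have the highest values, 3.28 and 3.15 over WT, and Gucy2c lies at -1.43 among the genes that fell.

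Against regenerating cells 4 of the 31 rose and 7 fell, beside 15.4% higher and 16% lower over all genes tested. This count is not read as particular to the list either. Cftr, Klf4, Tcf7l2 and Nppb were the 4 that rose, and Cdx1, Hnf4a and Slc12a2 were again lower. Nppb had no counts in regenerating libraries either, so it could only be called higher. Klf4 and Hnf4a lost their calls without any 1 of the KO or regenerating libraries, Hnf4a also with DESeq2 size factors, Nppb in DESeq2 and without KO replicate 2 or either regenerating library, Tcf7l2 without regenerating replicate 1 and Slc12a2 without KO replicate 1. With library size alone 2 rose and 13 fell, Klf4 and Tcf7l2 were not called, and calls over all genes were 1070 higher and 4408 lower, against 2139 higher and 2223 lower with TMM. Pde2a, a cyclic GMP-stimulated phosphodiesterase, was lower by 3.13 ± 0.61 (edgeR adjusted p = 0.00456), at 13.1 and 18.1 CPM in KO cells, against 87.3 and 186 CPM in regenerating cells. The WT mean of Pde2a was 44.7 CPM, and KO against WT was not called (edgeR adjusted p = 0.0551). Atoh1, the factor that specifies secretory cells, was lower by 2.20 ± 0.38 (edgeR adjusted p = 0.00281), at 49.0 and 47.4 CPM in KO cells, against 212 and 229 CPM in regenerating cells. The WT mean of Atoh1 was 64.2 CPM, and KO and WT cells overlapped without a call (edgeR adjusted p = 0.381). Between regenerating and WT cells 0 of 31 passed in edgeR, beside 5 in DESeq2, 0.331% of all genes, and 10.5% of all genes at an unadjusted p below 0.05.

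In the hindgut the receptor gene was expressed before the peptide genes and rose at each step. The 2 libraries of E11 had 37.2 and 19.5 CPM of Gucy2c, those of E12 90.3 and 83.6, those of E14 191 and 171 and those of E16 357 and 285. No 2 ages overlapped, as was so for 22.5% of genes with E12 above E11, 34.3% with E14 above E12, 40.2% with E16 above E14 and 41.4% with E16 above E11. The level at E16 exceeded that at E11 by 3.50 ± 0.29 (log2; edgeR adjusted p = 5.30e-05). The steps were 1.62 ± 0.27 at E12 over E11 (edgeR adjusted p = 0.0280), 1.06 ± 0.26 at E14 over E12 (0.0207) and 0.83 ± 0.26 at E16 over E14 (0.0379). The first step lost its call without any 1 of the E12, E14 or E16 libraries (edgeR adjusted p = 0.0618 to 0.0746), the second without any 1 of the E12 or E14 libraries and the third without any 1 of the E12, E14 or E16 libraries (0.0532 to 0.190). E16 over E11 was called whichever library was left out.

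Guanylin appeared late. Its level was 0 and 0.227 CPM (0 and 7 counts) in E11, 1.16 and 0.383 CPM in E12, 4.14 and 3.11 CPM in E14 and 581 and 688 CPM in E16 libraries. Nearly all of its level was thus reached between E14 and E16, when it rose 175-fold (log2 7.45 ± 0.39, edgeR adjusted p = 2.76e-05). E14 exceeded E12 by 2.23 ± 0.47 (0.0115), a call lost without E12 replicate 2 (0.0511) or E14 replicate 1 (0.0744), and a difference of 3.22 without E12 replicate 1. E12 and E11 did not differ past the threshold (2.60 ± 0.87, 0.158), with differences of 1.72 without E11 replicate 1, 1.62 without E12 replicate 1, 3.20 without E12 replicate 2 and 7.12 without E11 replicate 2.

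Uroguanylin also appeared late. Guca2b was at 0 and 0.747 CPM (0 and 23 counts) in E11 libraries and had no counts in either E12 library, then 1.74 and 1.53 CPM in E14 and 14.4 and 21.6 CPM in E16 libraries. Its E11 signal was in 1 library alone, and a count of 0 at E12 allows up to 0.0533 CPM over both libraries, counting error only. The pooled E14 level was 30.7-fold above E12, taking 3 counts in all for E12 (edgeR adjusted p = 0.0262). This call was lost without any 1 of the E12, E14 or E16 libraries. E16 exceeded E14 by 3.45 ± 1.19 (edgeR adjusted p = 0.0575), which passed in DESeq2 (0.00443) and without any 1 of the E11 or E12 libraries. E16 exceeded E11 by 5.54 ± 1.33 (edgeR adjusted p = 0.0117), a call lost without E16 replicate 2 (0.0673). The E16 difference was 11.7 without E11 replicate 2, whose 23 counts were the only ones at that age. E12 did not differ from E11 past the threshold (0.197), and did without E11 replicate 1 (0.0193).

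Over the 4 ages all 3 genes changed (edgeR adjusted p = 3.32e-06 for Guca2a, 0.00481 for Guca2b and 0.000167 for Gucy2c), as did 63% of the 16481 genes tested. Called genes made up 2.63% of genes at E12 over E11, 28.3% at E14 over E12, 39.6% at E16 over E14 and 55.7% at E16 over E11, of which 1.76%, 14.4%, 20.6% and 29.6% were higher and 0.874%, 13.9%, 19% and 26.2% lower at the later age. The ratio of Guca2a to Guca2b reads was 0.304 in E11 replicate 2 (95% exact interval 0.110 to 0.733), 2.38 and 2.03 at E14 and 40.3 and 31.8 at E16. The ratio was thus higher at E16 than at E14 in both libraries.

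**Figure D3:**
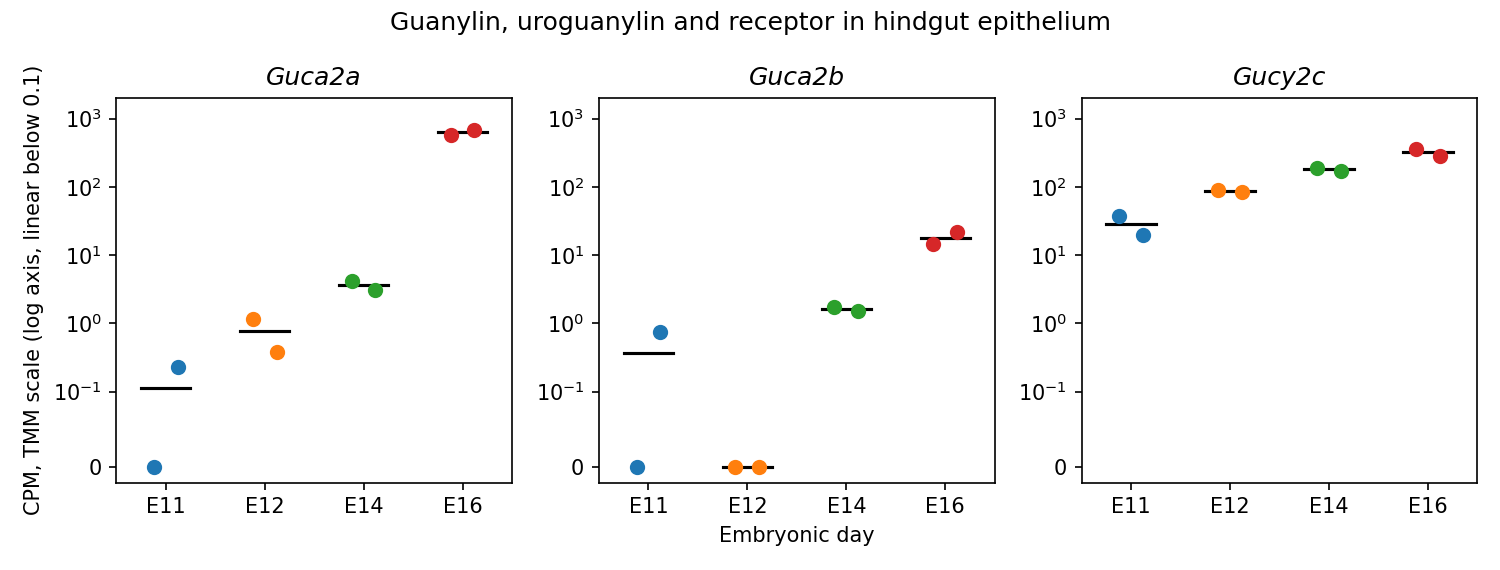
Levels of Guca2a, Guca2b and Gucy2c (CPM, TMM scale, log axis that is linear below 0.1) in hindgut epithelium at E11, E12, E14 and E16; points are libraries and lines are group means. Gucy2c climbs from the first age, at 37.2 and 19.5 CPM, whereas Guca2a is at or below 4.14 CPM until E14 and reaches 581 and 688 CPM at E16.

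The sums of several cell type lists were higher at E16, when guanylin was. The 10 goblet markers summed to 31.7 to 45.5 CPM in E11, 48.5 to 49.6 in E12, 101 to 110 in E14 and 7778 to 8286 in E16 libraries, with Atoh1 and Clca1 at 0 in both E11 libraries. The 11 enteroendocrine markers summed to 28.5 to 36.0, 12.4 to 18.4, 10.9 to 16.3 and 1211 to 1329 CPM. The 12 colonocyte markers climbed earlier and less, through 125 to 153, 180 to 250, 503 to 540 and 644 to 705 CPM, and Car4 was still at 0 in both E16 libraries. The 8 stromal markers summed to 164 to 175, 218 to 303, 200 to 209 and 7671 to 8878 CPM, and the 10 immune markers to 0.752 to 1.30, 3.42 to 7.91, 63.4 to 67.6 and 1982 to 2167 CPM, although cells were sorted on Epcam. Deep crypt secretory markers summed to 108 to 117 CPM in E11, 182 to 202 in E12, 251 to 252 in E14 and 1403 to 1590 in E16 libraries. Tuft markers summed to 139.6 to 162 CPM at E16, against 10.8 to 12.4 at E14, endothelial markers to 91.8 to 95.7 against 4.11 to 4.48, and neural markers to 179 to 191 against 7.71 to 8.05. The mitosis markers were lower, at 953 to 989 CPM at E16, against 2013 to 2030 CPM at E14. The epithelial markers summed to 7968 to 8076 CPM at E16, against 3272 to 3437 CPM at E11. The part of these shifts in the values of the 3 genes was not tested.

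Most of the listed pathway genes changed in the same direction as the 3 genes over development: at E16 over E11, 25 of 39 tested rose and 2 fell, with a median of 2.35 (log2), beside 0.05 over all genes, of which 29.6% rose and 26.2% fell. Of 9 effectors 4 rose, among them Prkg2 (log2 4.26 ± 0.86, edgeR adjusted p = 0.00405), with 34.1 and 39.0 CPM at E16, against 0.752 and 3.02 CPM at E11. Pde5a, which degrades cyclic GMP, rose by 2.13 ± 0.31 (0.000826).

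Of 12 transport and scaffold genes 10 rose and none fell. Slc12a2 had 325 and 309 CPM at E16, against 62.6 and 52.8 CPM at E11 (log2 2.46 ± 0.15, edgeR adjusted p = 1.66e-05). Slc9a3 and the chloride-bicarbonate exchanger Slc26a3 had no counts at E11 (edgeR adjusted p = 0.0212 and 0.0132). With E11 set to 3 counts in all, their pooled E16 levels were 25.9-fold and 77.8-fold higher. These folds do not allow for the spread between the E16 libraries. Both genes are among the 10 that rose. They passed the filter through the E16 libraries alone, so they could only be called higher. The Slc9a3 call was lost in DESeq2 and without any 1 of the E11 or E16 libraries, and the Slc26a3 call without E16 replicate 1. Both remained low at E16, with 1.42 and 1.28 CPM of Slc9a3 and 6.41 and 1.20 CPM of Slc26a3. Cftr followed another course, with 39.3 and 17.3 CPM in E11, 37.5 and 50.9 in E12, 111 and 92.2 in E14 and 36.9 and 39.0 in E16 libraries. It rose at E14 over E12 by 1.20 ± 0.34 (edgeR adjusted p = 0.0356) and fell at E16 over E14 by 1.42 ± 0.35 (0.0151). The first call was lost without any 1 of the E12, E14 or E16 libraries, and the second without E14 replicate 1 or either E16 library.

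Among 8 other cyclase and natriuretic peptide genes tested, 5 rose at E16 over E11. They included Gucy1a3, a subunit of soluble guanylate cyclase (log2 4.03 ± 0.39, edgeR adjusted p = 0.000115), and Npr2, the receptor of C-type natriuretic peptide (2.72 ± 0.41, 0.000927). The stromal marker sum was also higher at E16, and its part in these values was not tested.

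Of 10 transcription factors 6 rose and 2 fell. Hnf4a had 7.18 and 5.23 CPM in E11, 31.9 and 59.3 in E12, 367 and 338 in E14 and 318 and 278 in E16 libraries, so that it reached its level before guanylin did. Klf4 had 5.41 and 3.21, 22.7 and 15.8, 70.4 and 79.8, and 183 and 183 CPM at the same ages. Atoh1 had no counts at E11, reached 9.36 and 8.54 CPM at E14 and 184 and 155 CPM at E16, and was 18.9-fold higher at E16 than at E14 (log2 4.24 ± 0.44, edgeR adjusted p = 0.000644). Cdx1 was lower at E12 (1.60 and 3.17 CPM) than at E11 (18.0 and 24.5 CPM) before it rose to 518 and 451 CPM at E16. Cdx2 was not called in any step, at 101 to 223 CPM in all 8 libraries.

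Across the 8 hindgut libraries the log2 levels of Guca2a and Guca2b had r = 0.98, Guca2a and Gucy2c r = 0.79 and Guca2b and Gucy2c r = 0.74, where all points share age. Among 11965 genes, the closest to Guca2a were Ms4a6c, Oat and Nans, the closest to Guca2b were Alpi, Bin2 and Cacna1g, and the closest to Gucy2c were Ush1c, C2cd4b and Il1rap. Alpi encodes intestinal alkaline phosphatase and Ush1c a protein of microvilli.

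The day 8 library gave 3358 cells, with a median of 20846.5 UMIs and 4451.5 genes per cell. With 1 library there is no test between cells, and intervals are exact 95% intervals that cover counting error only. Guca2a had 337 CPM of summed UMIs and was seen in 66.6% of cells (65.0% to 68.2%). Guca2b had 84.8 CPM and was seen in 52.4% of cells (50.7% to 54.1%), and Gucy2c had 73.8 CPM in 73.7% of cells (72.2% to 75.2%). Barcodes with at most 100 UMIs, which hold free RNA, gave 328, 79.0 and 42.5 CPM for Guca2a, Guca2b and Gucy2c, so a single UMI of a peptide in a cell could not be told from free RNA. With each cell thinned to 2000 UMIs, the shares of cells with a UMI were 37.7%, 16.8% and 13.7%.

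Cells differed more in their peptides than in their receptor. The 10% of cells with the most Guca2a UMIs (336 cells) held 47.4% of them, and those with the most Guca2b UMIs held 46.9%, against 31.8% for Gucy2c. A cell held up to 164 UMIs of Guca2a, 25 of Guca2b and 12 of Gucy2c. The median cell held 2 UMIs of Guca2a, and 20 cells held 100 or more.

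Cells were clustered without the 3 genes into 14 clusters, and a cluster was named only where listed markers led it. Guca2a was highest in the larger of 2 clusters of colonocyte-like cells, 110 cells led by Reg3b, 1810065E05Rik and Reg3g with the colonocyte markers Car1, Cyp2c55 and Krt20, at 2299 CPM (2241 to 2358). This cluster was 3.28% of cells and held 21.7% of Guca2a UMIs. It was followed by the deep crypt secretory-like cells, which support stem cells at the colonic crypt base, in 2 clusters. The one led by Nov and Muc2 (299 cells) had 1244 CPM (1210 to 1279), and the one led by Cma1, Sval1 and Ccl6 (467 cells) had 1156 CPM (1128 to 1185). The other colonocyte-like cluster, led by Saa1 and Car4 (61 cells), had 684 CPM. Together the deep crypt secretory-like clusters were 22.8% of cells and held 41.2% of Guca2a UMIs, and the colonocyte-like clusters were 5.09% of cells and held 25.1%.

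Guca2b had another order. It was highest in the deep crypt secretory-like clusters, at 328 CPM (313 to 344) in the Cma1-led and 282 CPM (266 to 298) in the Nov-led cells, which held 42.4% of its UMIs. In the colonocyte-like clusters it was at 97.2 CPM in the Reg3b-led and 19.6 CPM (12.9 to 28.6) in the Saa1-led cells, which held 4.04% of its UMIs. Guca2a was thus high in both kinds of cluster and Guca2b was highest in the secretory kind. In the Reg3b-led cells Guca2b was still above the 12.6 to 16.8 CPM of the low clusters described below. The goblet-like cluster led by Zg16 and Clca1 (31 cells) had 367 CPM of Guca2a and 73.0 CPM of Guca2b, below the deep crypt secretory-like cells in both. In it 1 cell held 49 of the 146 Guca2a UMIs, and 1 cell held 12 of the 29 Guca2b UMIs. The cluster led by these genes had 226 and 35.3 CPM at Leiden resolution 0.5 and 87.8 and 10.1 CPM at 1.5, so its level rests on few cells.

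The other clusters fell into an intermediate and a low set. An unnamed cluster led by Mptx1 and Ramp1 (348 cells) had 388 CPM of Guca2a and 163 CPM of Guca2b, and a mitosis-like cluster led by Lyz1 (219 cells) had 321 and 153 CPM. Both also carried RNA of deep crypt secretory markers, with 2787 and 2442 CPM of Reg4 and 9750 and 8169 CPM of Spink4. The mitosis-like cluster led by Ube2c had 56.1 CPM of Reg4 and 159 CPM of Spink4. An unnamed cluster led by Fabp6 and Gsdmc4 (223 cells) had 215 CPM of Guca2a and 27.8 CPM of Guca2b. The S phase-like cluster (326 cells), the mitosis-like cluster led by Ube2c (311 cells) and the unnamed clusters led by Iigp1 (525 cells) and Nxpe2 (331 cells) had 21.2 to 26.2 CPM of Guca2a and 12.6 to 16.8 CPM of Guca2b. Thinned to 2000 UMIs, 90.3% and 88.2% of cells in the Nov-led and Cma1-led clusters and 80.9% in the Reg3b-led cluster had a Guca2a UMI, against 4.6% to 5.44% in these 4 low clusters. The low clusters served as the background, since no cluster was known to lack these genes. The cluster led by Ccl5 and Gzma (83 cells), which carried 6 immune markers together with epithelial genes, had 74.8 CPM of Guca2a, of which 1 cell held 74 of 162 UMIs.

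Gucy2c differed less between clusters than the peptide genes, though not all of its intervals overlapped. In the 12 clusters of at least 50 cells its level ranged 2.14-fold, against 108-fold for Guca2a and 26.0-fold for Guca2b. The lowest was the Cma1-led deep crypt secretory-like cluster with 49.2 CPM (43.5 to 55.5), and the highest the Saa1-led colonocyte-like cluster with 106 CPM (89.0 to 124), whose interval overlapped that of the Nov-led cluster (92.2 CPM, 83.1 to 102). The dividing clusters lay between, at 72.5 CPM in S phase-like and 70.9 CPM in the Ube2c-led mitosis-like cells. The 24 enteroendocrine-like cells had 96.7 CPM (72.8 to 126). Every named and unnamed cluster thus exceeded the 42.5 CPM of the low-UMI barcodes in its point value, though in the goblet-like cluster the interval (40.7 to 92.8) included it. The interval of the Cma1-led cluster also overlapped that of the low-UMI barcodes (37.5 to 48.0). The low-UMI level is that of free RNA alone, and the share of free RNA in a cell was not measured. Such an overlap thus does not show that the UMIs of a cluster were free RNA. For Guca2a the low-UMI barcodes had 328 CPM, against 21.2 to 26.2 CPM in the 4 low clusters.

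**Figure D4:**
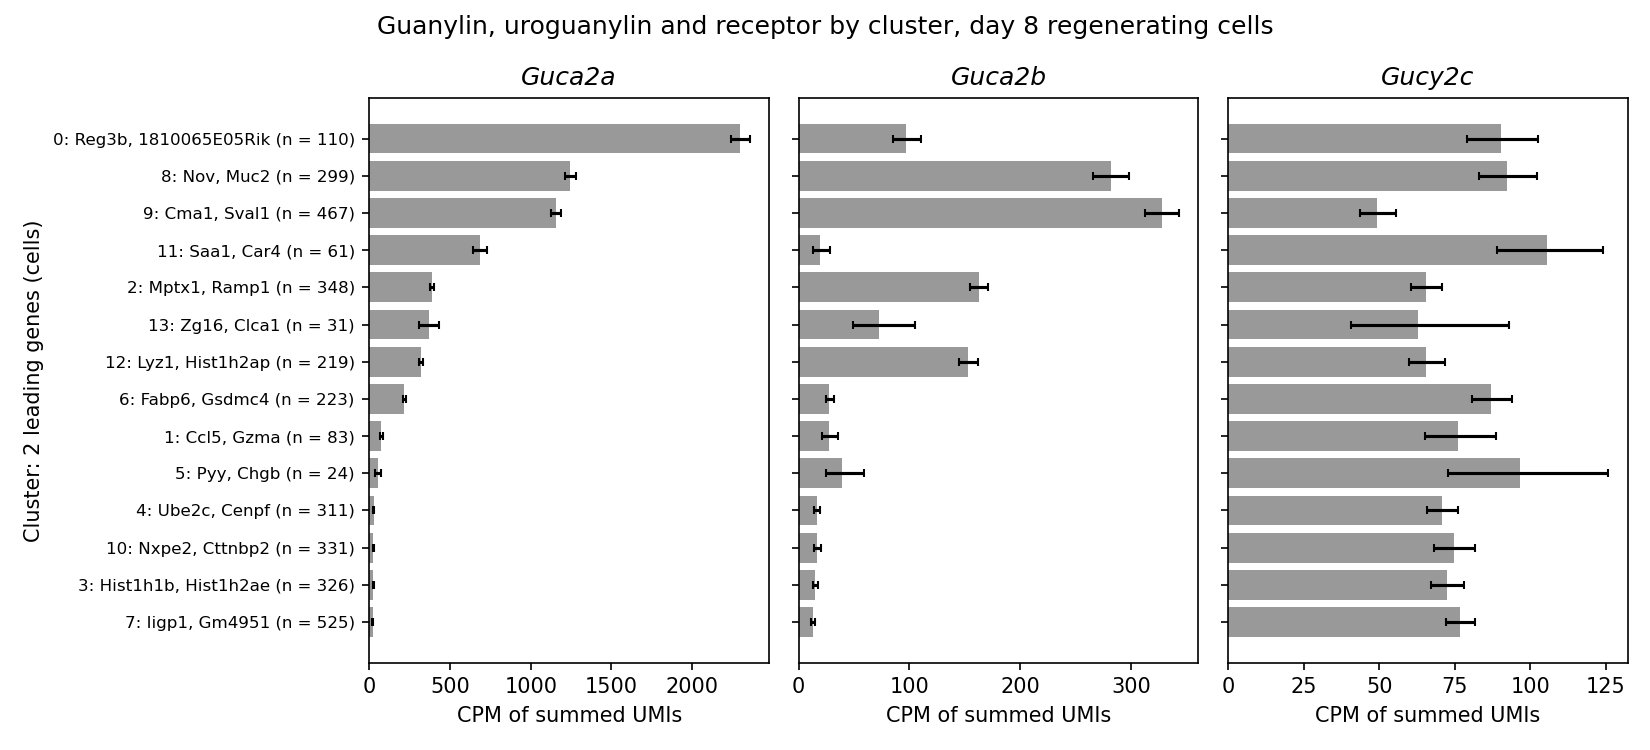
CPM of summed UMIs of Guca2a, Guca2b and Gucy2c in the 14 clusters of day 8 regenerating cells, ordered by Guca2a, with exact 95% Poisson intervals for counting error and a separate linear axis per gene. Guca2a peaks at 2299 CPM in the Reg3b-led cluster and Guca2b at 328 CPM in the Cma1-led cluster, whereas Gucy2c stays between 49.2 and 106 CPM.

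Co-detection within cells, at 2000 UMIs each, gave the same picture from single markers. Guca2a was seen in 82.3% of the 464 cells with Atoh1 and 30.5% of those without, and in 71.3% of cells with Muc2, the goblet mucin, and 14.5% of those without. It was seen in 71.8% of the 174 cells with Slc26a3 and 35.8% of those without. It was less frequent in cells with Mki67, a marker of cycling cells, at 19.1%, against 43.5% without, and in the 83 cells with Ascl2, at 19.3%, against 38.2%. Guca2b was seen in 37.9% of cells with Atoh1 and 13.4% without, and in 32.7% of cells with Muc2 and 5.84% without. Unlike Guca2a, it was seen in 9.20% of cells with Slc26a3 and 17.2% without, and in 8.5% of cells with Krt20, a marker of surface cells, and 17.3% without.

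The peptides were often seen in the same cells. Guca2b was seen in 32.3% of cells with Guca2a and 7.41% of cells without. Gucy2c was seen in 13.1% of cells with Guca2a (interval 11.3% to 15.1%) and 14% of cells without. It was seen in 12.1% of cells with Guca2b and 14% of cells without, and in both pairs the intervals overlapped. For Muc2 the shares were 12.3% with and 14.6% without. Cells share 1 library, so these shares are descriptions.

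**Figure D5:**
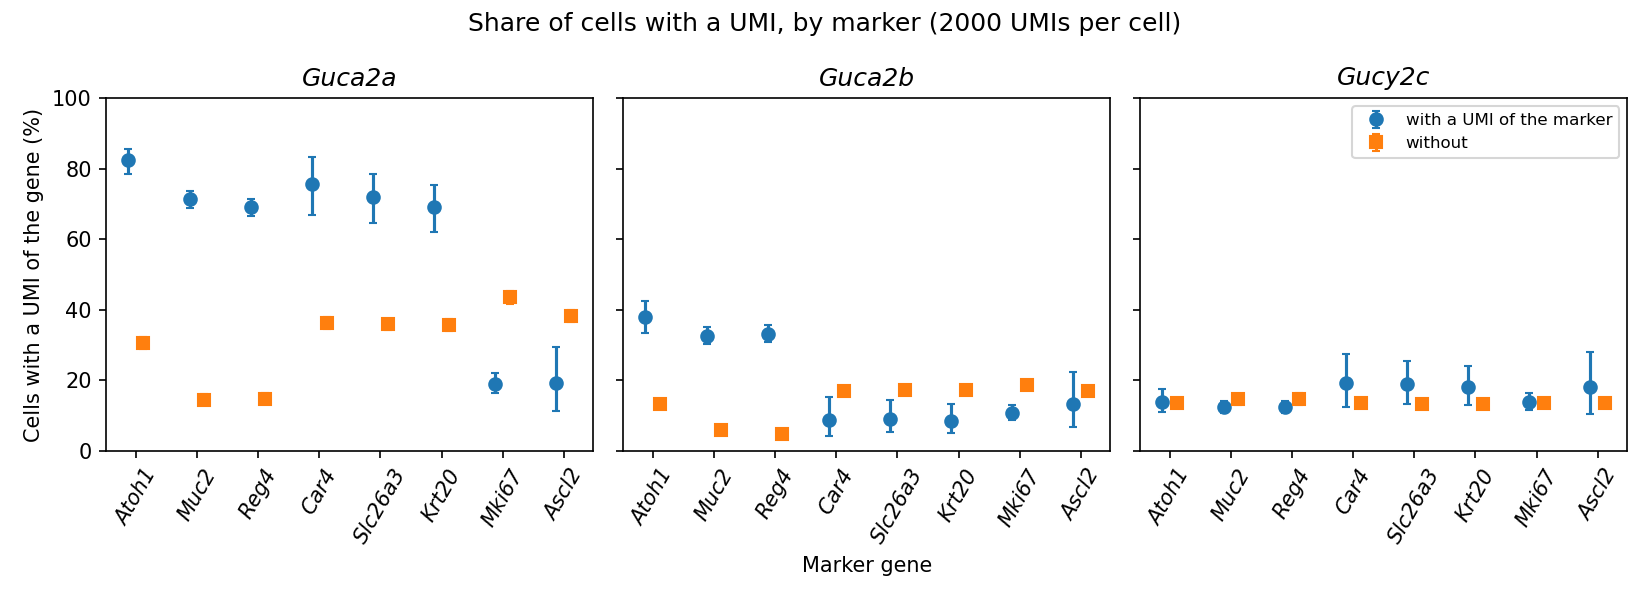
Share of cells with a UMI of Guca2a, Guca2b or Gucy2c (%, exact 95% binomial intervals) among day 8 cells with (blue circles) and without (orange squares) a UMI of each marker on the horizontal axis, every cell thinned to 2000 UMIs. Guca2a is more frequent with secretory and with absorptive markers, Guca2b with secretory markers such as Muc2 (32.7% against 5.84%), and Gucy2c stays between 12.3% and 19.1%.

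Across the 14 clusters the log2 levels of Guca2a and Guca2b had r = 0.79, Guca2a and Gucy2c r = 0.02 and Guca2b and Gucy2c r = -0.36, where all points share a library. Of 9729 genes the closest to Guca2a were Pld1, Trp53inp2 and Sh3glb1, those closest to Guca2b were Slc12a8, Reg4 and Cma1, and those closest to Gucy2c were Retreg3, Ggnbp2 and Sash1 (r = 0.82 for the first). The leading genes of Guca2b include 2 deep crypt secretory markers.

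Downstream genes differed in how widely they were spread. Cftr was seen in 57.4% of cells, with 68.8 CPM over all cells and 147 CPM in its highest cluster. Pde5a had 30.5 CPM over all cells and 45.7 CPM in its highest cluster. For both genes this was the cluster led by Ccl5 and Gzma, which also carried immune markers. Gucy2c had 73.8 CPM over all cells and up to 106 CPM in a cluster. Slc26a3 peaked in the Saa1-led colonocyte-like cluster, at 1589 CPM, and Slc9a3 in the Reg3b-led cluster, at 122 CPM, where Guca2a also peaked. Slc12a2 was highest in the Cma1-led deep crypt secretory-like cluster, at 563 CPM. Pde5a was seen in 45.6% of cells and Prkg2 in 3.04%. Prkg2 had 1.46 CPM over all cells and 1.81 CPM in the low-UMI barcodes, and the part of free RNA in its UMIs was not tested. Prkg1 was seen in 0 of 3358 cells. The exact 95% upper bound was 0.110% on cells with a UMI, not on cells that express it. Klf4 peaked with Guca2a in the Reg3b-led cluster, at 1166 CPM, and Atoh1 in the Nov-led cluster, at 288 CPM.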

How the data were processed

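Bulk libraries come as one deposited table of read counts, one value per symbol, which the authors made with STAR 2.5.3a and HTSeq on GRCm38 or mm10, per the submitters' processing notes. The annotation release and strand setting are not given in the sources used here. For the single cells the deposited file gives UMI counts of every barcode. Per the file headers it was written by Cell Ranger 3.0.2. The 5 entries of the bulk table that name no gene were left out (reads without a feature were 5.77% to 9.77% of reads in adult libraries). The columns named resting were taken as the WT samples, a match that was inferred.

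The 7 adult and 8 hindgut libraries were fitted apart with edgeR 4.0.16 in R 4.3.3: filterByExpr by group, TMM, quasi-likelihood F test, two-sided, Benjamini-Hochberg adjustment over all genes tested, threshold 0.05. SE is the log2 fold change divided by the square root of F. The fit was tested on simulated data. Deviations of same-numbered replicates had r from -0.10 to 0.18, with 2 numbers shared by all groups, so the numbers were not taken to pair samples and no block was used.

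Cells had at least 2000 UMIs and 500 genes and at most 20% mitochondrial UMIs (140 barcodes failed on the last). Of 6794880 barcodes 3527 had 2000 UMIs. Scrublet marked 0 cells, so doublets were not removed. Clusters are Leiden at resolution 1 in scanpy 1.11.5, on 2000 variable genes, 30 components and 15 neighbours, without the 3 genes. Likeness is Pearson's r of log2(CPM + 1), and the 3 genes with the highest r are named. Named pathway genes are those called or those a result turns on, and 1 is not reported here. The members and lists were chosen with earlier results of these data known. DESeq2 1.42.0, scaling, filters, samples in the fit and single libraries were varied.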

Additional observations from a re-analysis of the deposited data

How the results depend on the processing

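Of the 3 genes, the calls of Ascl2 KO against WT and of E16 against E11 for Guca2a and Gucy2c held in every alternative run. In regenerating against WT the count of called genes was 46, beside 470 in DESeq2, 225 with no filter, 6 with the 2 groups alone and 1 to 39 without single libraries. The pathway count was 0, beside 5 in DESeq2, 3 with no filter and 0 to 1 without single libraries. Guca2a there turned to -0.11 with library size alone, -0.57 without regenerating replicate 2, -0.21 without WT replicate 1 and -0.33 without WT replicate 2, within -0.57 to 1.02 without single libraries. In KO against WT 13 pathway genes were called, 20 in DESeq2, 21 with library size alone and 8 to 15 without single libraries. Against regenerating cells, without single libraries, calls ranged from 2446 to 4668, pathway calls from 7 to 13, Guca2a from 2.68 to 3.61 and Gucy2c from -1.25 to -0.94. Library size alone moved the median of all genes to -0.84 there and to -0.17 in regenerating against WT, and DESeq2 size factors moved it to 0.14 in E16 against E11.

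In E12 against E11 434 genes were called, 1493 in DESeq2, 54 with the 2 groups alone and 119 to 919 without single libraries. Pathway calls were 5, beside 8, 1 and 3 to 5. Guca2b passed in DESeq2 at -5.87 and ranged from -7.13 to -6.16, fitted values against counts of 0 that are no bounds. Without E11 replicate 2 both groups had 0 counts and no value was had. Gucy2c was 1.62 with the 2 groups alone (edgeR adjusted p = 0.113) and 1.22 to 2.15 without single libraries. In E14 against E12 calls ranged from 1717 to 5846 and pathway calls from 10 to 20 without single libraries, Guca2a from 1.64 to 3.22 (2.25 with the 2 groups alone, edgeR adjusted p = 0.0541), the fitted Guca2b from 8.23 to 8.40 and Gucy2c from 1.00 to 1.17. In E16 against E14 the ranges were 3468 to 7888, 11 to 24, 3.13 to 3.71 for Guca2b and 0.65 to 0.98 for Gucy2c. Guca2b passed there at 3.54 in DESeq2, 3.41 with no filter and 3.46 with the 2 groups alone. Guca2b at E16 over E11 ranged from 4.58 to 11.7, and its highest value left out E11 replicate 2. Where these settings changed a call, the cause was not tested.

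With the replicate number as a block, E12 against E11 gave 266 calls and 3 pathway calls, Guca2a in KO against WT was 17.3-fold higher, and it changed no call of the 3 genes. Among the pathway genes named, the block ended the calls of Pde9a, Slc9a2 and Slc9a3r1 in KO against WT, Hnf4a in KO against regenerating cells and Slc9a3 in E16 against E11.

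In single cells, thinning gave 490 CPM of Guca2a and 115 CPM of Guca2b and the lower shares already given (37.7%, 16.8% and 13.7%). A mitochondrial limit of 10% gave 317 CPM of Guca2a. The highest cluster had 1301 CPM of Guca2a at Leiden resolution 0.5 and 380 CPM of Guca2b at 1.5. Depth limits the hindgut peptides before E16 most, where they rest on 0 to 95 counts a library.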
